A study of Saccharomyces cerevisiae with 34 samples.

Results

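The genes described here are 39 nuclear genes for subunits of the mitochondrial respiratory chain and ATP synthase, out of 6209 genes counted in budding yeast (Saccharomyces cerevisiae). They were chosen by name: 3 NADH dehydrogenases (NDI1, NDE1, NDE2), 4 subunits of complex II (succinate dehydrogenase), 9 of complex III (the cytochrome bc1 complex), 2 cytochromes c (CYC1, CYC7), 9 of complex IV (cytochrome c oxidase) and 12 of the ATP synthase. The set is not complete: ATP19, TIM11 and COX26 were placed in another list, and the subunits encoded in the mitochondrial genome were not among the genes counted. The study asked what mislocalized CENP-A Cse4, the histone H3 variant of centromeres, does to transcription. RNA-seq was done on 34 libraries from 17 strains of asynchronous cells, grown in log phase in rich medium with lactic acid and taken before (t0) and 2 h after (t2) the addition of galactose. The strains were all W303 derivatives with wild-type RAD5 and carried the alleles ade2-1, leu2-3,112, bar1-1, ura3-1, bud4, his3-11, can1-100 and trp1-1, apart from the loci used for the constructs below.

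The 6 genotypes were WT, psh1Δ, which lacks the ubiquitin ligase for Cse4, htz1Δ, which lacks the histone variant H2A.Z, pGAL-3Flag-CSE4, which makes extra Cse4 from the GAL promoter on galactose, psh1Δ pGAL-3Flag-CSE4, which has both changes, and pGAL-H3, which makes extra histone H3 in the same way. By the labels, the psh1 deletion carries KAN and the htz1 deletion HYG. The paper's strain list gives HYG for the psh1 deletion of the psh1Δ pGAL-3Flag-CSE4 strain of batch 3. The Cse4 construct came with LEU2 at the leu2 locus, and the H3 construct with TRP1 at the trp1 locus. The other strains lack these markers, so a construct and its marker cannot be told apart. The labels number the cultures as batches 1 to 3. Each genotype had 1 strain and 1 pair of libraries in each batch (n = 3), and only pGAL-3Flag-CSE4 had no culture in batch 1 (n = 2). WT, psh1Δ and htz1Δ carry no GAL construct, and in every strain the effect of galactose and that of the further 2 h in culture cannot be told apart. Library totals were 5258139 to 6836827 counts. The deletions were read back in the counts (at most 3 of PSH1 in 12 libraries and at most 2 of HTZ1 in 6), and CSE4 and HHT1 were at their highest only in the induced strains that carry them, so that no label went against its libraries. The psh1Δ t2 library of batch 3 deviated most from its group, with a median absolute log2 deviation of 0.167 over genes.

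In the mitochondrion of budding yeast, electrons enter the chain from NADH through single-subunit dehydrogenases (Ndi1 facing the matrix, Nde1 and Nde2 facing outwards) and from succinate through complex II. They pass by coenzyme Q to complex III, by cytochrome c to complex IV and then to oxygen, and the proton gradient drives the ATP synthase. Lactate, the carbon source at t0, cannot be fermented and feeds electrons to cytochrome c through lactate dehydrogenases, whereas galactose can be fermented as well as respired. Cytochrome c and subunit V of complex IV each have 2 isoforms: CYC1 and COX5A are the forms made in air and CYC7 and COX5B are those known for low oxygen, repressed in air through heme and the Rox1 repressor. The Hap2/3/4/5 complex, which binds sites with a CCAAT core, is known as the activator of many of these genes on non-fermentable carbon.

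To show the upstream sequence that these genes share, the 300 bases before each start codon were read from the RefSeq genome (build R64) and searched on both strands. CCAAT was present in 33 of the 39 windows (84.6%), against 42.4% of the windows of 5700 genes. All 4 complex II genes and all 12 ATP synthase genes held it, whereas NDE2, COR1, CYT1, COX4 and both cytochrome c genes did not. ATTGTT, the core of the Rox1 site, was in 17 windows (43.6%, against 34.5% of all windows), among them those of COX5A and COX5B, which also held CCAAT, but not in that of CYC7. The Hap1-type motif CGGNNNNNNCGG was in 5 windows (12.8%, against 2.35%), those of QCR6, QCR8, QCR10, COX7 and COX8. Matches of CCAAT and ATTGTT, on either strand, can overlap by a few letters but cannot start at the same base. A match is a description of the letters and not a bound site. The stretches printed are those of 4 genes that the comparisons of galactose and genotype turn on, of both isoforms of subunit V, and of 1 gene with the Hap1-type motif. They are written 5′ to 3′ on the strand of the gene, with 1 match of the named motif in capitals. Further CCAAT matches, on either strand, are left in lower case in the stretches of SDH2, COX5A and COX5B.
SDH4 (chrIV:817692-817746, + strand, CCAAT): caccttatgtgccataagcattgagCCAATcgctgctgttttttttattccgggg
SDH2 (chrXII:54056-54110, - strand, CCAAT): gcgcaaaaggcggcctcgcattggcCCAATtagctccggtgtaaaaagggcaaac
NDI1 (chrXIII:30005-30059, - strand, CCAAT): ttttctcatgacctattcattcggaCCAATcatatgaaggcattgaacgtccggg
ATP15 (chrXVI:29921-29975, + strand, CCAAT): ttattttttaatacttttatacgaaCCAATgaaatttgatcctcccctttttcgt
COX5A (chrXIV:531530-531584, + strand, CCAAT): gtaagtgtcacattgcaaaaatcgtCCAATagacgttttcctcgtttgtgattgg
COX5B (chrIX:154973-155028, + strand, ATTGTT): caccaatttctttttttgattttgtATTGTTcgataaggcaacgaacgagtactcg
QCR8 (chrX:106224-106285, + strand, CGGNNNNNNCGG): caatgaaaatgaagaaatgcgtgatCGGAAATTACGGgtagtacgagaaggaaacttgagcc

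Levels are CPM (each count divided by its library's size and scaled to a common total), normalized by TMM over the 34 libraries, and are compared between genes only per kilobase of coding sequence. In WT cells at t0, ATP2, the catalytic beta subunit of the F1 part of the ATP synthase, was highest at 5078 ± 382 CPM per kb (SD, n = 3). CYC1 followed at 3823 ± 505 and ATP1, the F1 alpha subunit, at 2464 ± 119 CPM per kb. SDH4, SDH2 and COX5A came next at 2046 ± 229, 2033 ± 111 and 2012 ± 40.6 CPM per kb, and did not differ beyond their spread. The members after these ran from SDH3 at 1891 ± 55.1 down to COX7 at 635 ± 33.7 CPM per kb. The low-oxygen isoforms and the second external NADH dehydrogenase stood far below, CYC7 at 90.4 ± 76.5, COX5B at 28.2 ± 14.1 and NDE2 at 15.6 ± 7.88 CPM per kb. The spread of these 3 between WT libraries was large for their means and followed the batches. Per library, CYC1 exceeded CYC7 by 24.5 to 92.7 times in WT at t0, COX5A exceeded COX5B by 44.7 to 102.3 times and NDE1 exceeded NDE2 by 49.4 to 170.5 times on the per-kb scale.

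The levels of most members were lower after galactose, in WT and on average over the 6 genotypes, by less than 1.5-fold. The summed level of the 39 genes in WT was 39868 to 41309 CPM at t0 and 32735 to 34229 CPM at t2, with no overlap, and its share of all counts was 4.22 to 4.32% and 3.29 to 3.57%. The difference was largest in complex II, among the complexes and by the median. SDH4, a membrane anchor subunit, was at 1126, 1238 and 987.6 CPM at t0 and at 782.1, 771.0 and 738.2 CPM at t2 in batches 1, 2 and 3. Every t2 library of SDH4 was thus below every t0 library of WT. In all, 26 of the 39 members had no overlap between WT t0 and t2 and were lower at t2, against 14.8% of all genes. With library totals in place of TMM it was 28, against 18.7%.

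A gene was called where edgeR's quasi-likelihood test gave an adjusted p under 0.05 (Benjamini-Hochberg over all 6209 genes) and a change of at least 1.5-fold. By this rule no member was called in WT (background 3% of all genes). With edgeR 20 members, each lower, had an unadjusted p under 0.05, as had 1565 of all 6209 genes in either direction. DESeq2 called 0 members. Without the fold minimum 5 members fell (background 3.74% of genes lower), at adjusted p of 0.0296 to 0.0430 in edgeR. These were NDI1 (log2 fold change -0.54, SE 0.10), the complex II genes SDH1 (-0.47), SDH3 (-0.46) and SDH4 (-0.56), and ATP15 (-0.45), the epsilon subunit of F1. With the batch as a block 12 members fell in WT. Without batch 1 or batch 2 none passed, and without batch 3 14 fell and 2 rose, of which SDH4 (-0.61), CYC7 (1.46) and COX5B (0.91) were called. The shares of all genes under the block and without a batch were not counted. The median log2 change of the 39 was -0.24, against -0.01 over all genes, and 35 of the 39 values were negative. The exceptions were CYC7, COX5B, NDE1 and NDE2, at log2 values of 0.31, 0.35, 0.13 and 0.10 that did not pass the test.

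**Figure D1:**
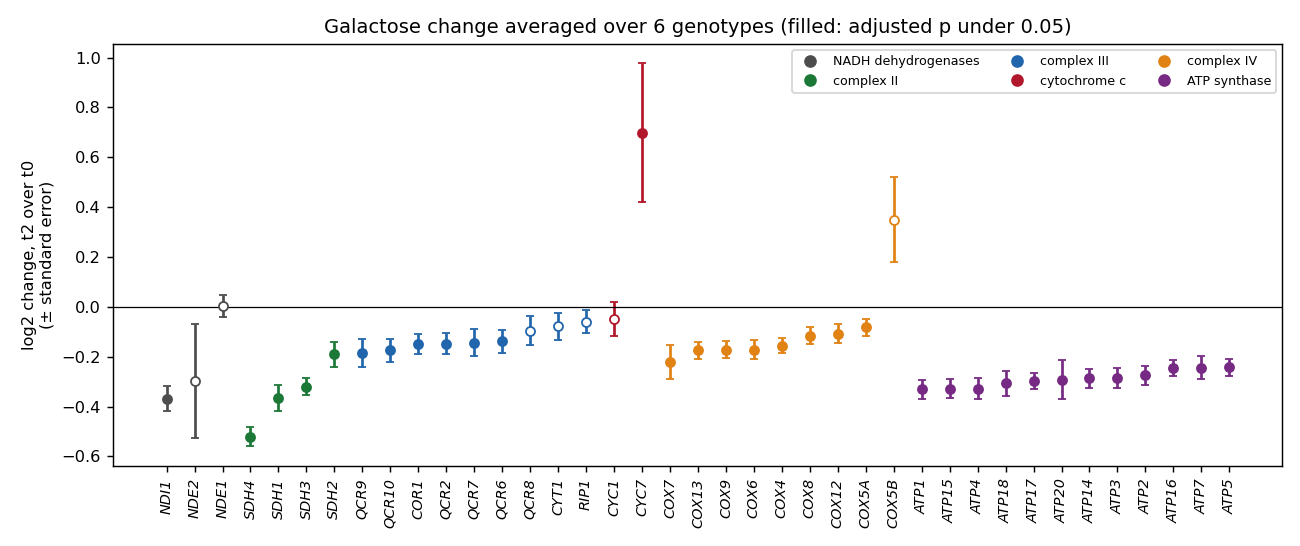
Log2 change after galactose (vertical axis) of each of the 39 genes, averaged over the 6 genotypes, with bars of 1 SE. Filled points passed an adjusted p of 0.05 in edgeR. The points of complex II and the ATP synthase all lie below 0, SDH4 farthest at -0.52, and CYC7 is the filled point above 0, at 0.70.

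Averaged over the 6 genotypes (34 libraries), 31 members fell and 1 rose at an adjusted p under 0.05, where 28.4% and 27.4% of all genes fell and rose. DESeq2 gave the same counts, and without batch 2 edgeR gave 20 that fell and 0 that rose (shares of all genes not counted). Of the 31, none fell by 1.5-fold, and 1 member was called, CYC7 (background 6.99%). With library totals in place of TMM the call moved to SDH4 (-0.60, adjusted p = 2.99e-12 in edgeR), and CYC7 (0.63) was not called. The median was -0.18 on the log2 scale against -0.01 for all genes. All 4 complex II genes fell (median -0.34), with SDH4 (-0.52, SE 0.04, adjusted p = 3.93e-11 in edgeR), SDH1, the flavoprotein (-0.37), SDH3, the second anchor (-0.32), and SDH2, the iron-sulfur subunit (-0.19). All 12 ATP synthase genes fell (median -0.29), from -0.24 for ATP5 and ATP7 to -0.33 for ATP1.

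Complexes III and IV moved less. In complex III 6 of 9 genes fell (median -0.14), among them QCR9 (-0.18) and the core subunits QCR2 and COR1 (both -0.15). RIP1, the Rieske iron-sulfur protein (-0.06), CYT1, cytochrome c1 (-0.08), and QCR8 (-0.10) did not pass. In complex IV 8 of 9 fell (median -0.16), from COX7 (-0.22) to COX5A (-0.08, adjusted p = 0.0479 in edgeR), and the ninth was COX5B (0.35, SE 0.17, adjusted p = 0.0826). NDI1 fell by 0.37 on the log2 scale, while NDE1 (0.00) and NDE2 (-0.30, SE 0.23) did not pass, nor did CYC1 (-0.05).

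By culture, 7 members were lower at t2 in all 17 cultures: SDH4, ATP1, ATP2, ATP4, ATP15, ATP16 and ATP20. In all, 24 members were lower in at least 14 cultures, and none was higher in all 17. With library totals these counts were 17, 31 and 0. The shares of all genes that met these rules were not counted. In single cultures 2911 to 3248 of the 6209 genes were lower at t2 with TMM. The median of the 12 ATP synthase genes was negative in each of the 17 cultures. CYC7 was lower in 4 of 17 cultures and COX5B in 5.

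**Figure D2:**
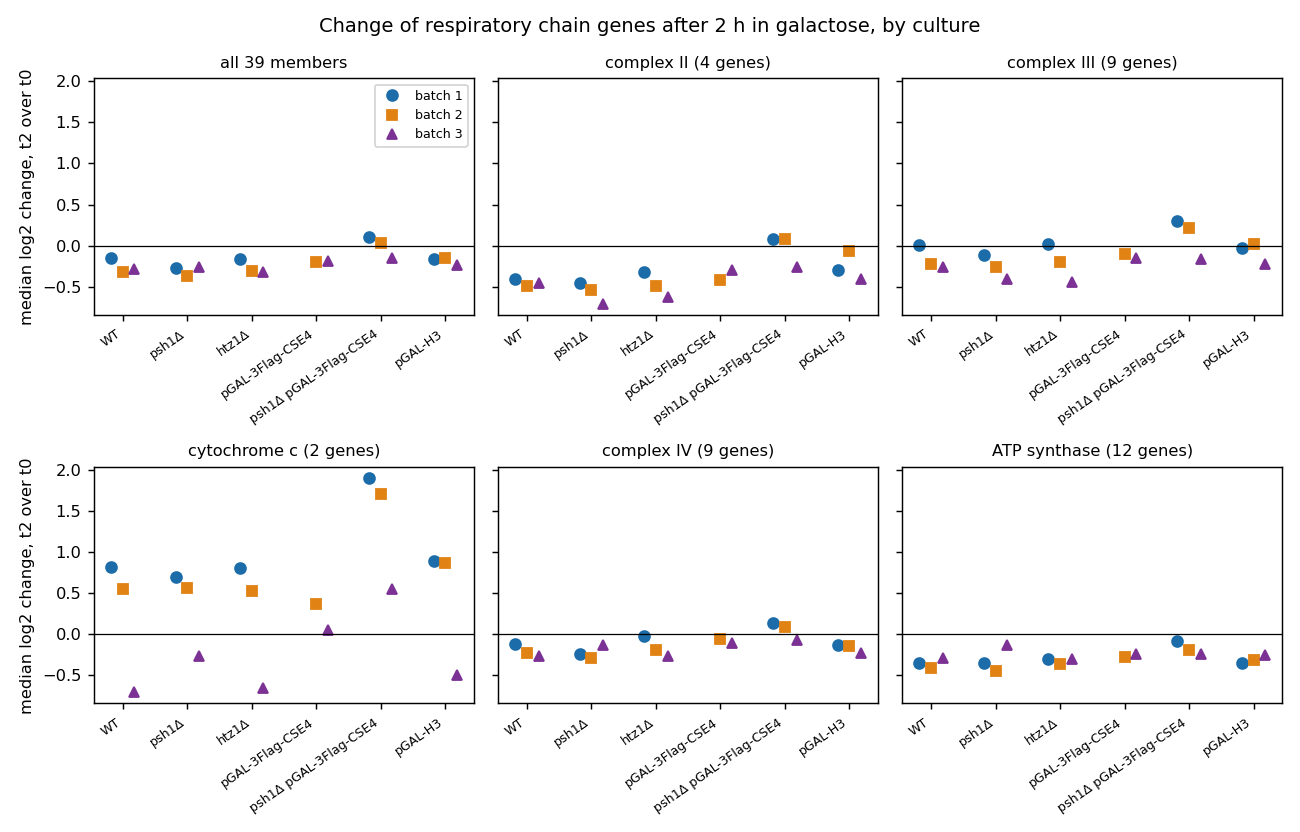
Median log2 change from t0 to t2 within each culture (vertical axis) for all 39 genes, complex II, complex III, cytochrome c, complex IV and ATP synthase, by genotype and with batch as marker shape. ATP synthase medians lie below 0 in all 17 cultures, and the complex II medians of psh1Δ pGAL-3Flag-CSE4, at -0.26 to 0.08, lie above those of WT, at -0.50 to -0.40.

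The genes around the chain moved in the same direction, on lists chosen with the members. All 4 electron donors were called lower on average: JEN1, the lactate permease (-2.20), DLD1, the D-lactate dehydrogenase (-1.19), GUT2, the mitochondrial glycerol-3-phosphate dehydrogenase (-0.95), and CYB2, the L-lactate dehydrogenase (-0.73). Of 34 assembly factors, 33 fell, and 3 of them were called, CBP4 of complex III (-0.75), PET117 of complex IV (-0.63) and SDH5 of complex II (-0.60). In coenzyme Q synthesis 6 of 9 genes fell and 1 rose, and among 9 other subunits and inhibitors 5 fell and 1 rose, with STF1, an F1 regulator, called (-0.72). Of 8 regulators 6 fell, including HAP4 (-0.26), HAP5 (-0.29) and CAT8, an activator of genes for non-fermentable carbon, which was called (-0.72). HAP1 (0.01) and ROX1 (0.12) did not pass. In WT alone JEN1 (-2.14), DLD1 (-1.17), GUT2 (-1.002), CYB2 (-0.86), STF1 (-0.85), CBP4 (-0.77), COX17 (-0.70), COX14 (-0.69), CAT8 (-0.63), COX16 (-0.59) and FMC1 (-0.59) were called lower. Of these, 5 are assembly factors, a list in which DESeq2 called 3 genes.

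CYC7 rose on average by 0.70 on the log2 scale (SE 0.28, adjusted p = 0.0356 in edgeR), but its level depended on the batch. In WT at t0 it was at 12.38, 19.49 and 60.84 CPM in batches 1, 2 and 3, and at t2 at 38.17, 49.44 and 26.71 CPM. In batches 1 and 2 it was thus higher at t2 than at t0, and in batch 3 lower. Batch 3 was also the highest at t0 in the other strains, with 17.86, 21.65 and 72.47 CPM in psh1Δ and 11.75, 11.08 and 50.7 CPM in htz1Δ. In pGAL-H3 it was 15.56, 17.99 and 82.9 CPM. CYC7 was higher at t2 in 11 of 11 cultures of batches 1 and 2 (log2 change 1.08 to 3.19) and in 2 of 6 cultures of batch 3 (-1.17 to 1.13). Without batch 3 its averaged change was 1.70, and without batch 1 or batch 2 it was 0.36 or 0.37 and was not called.

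COX5B showed the same division at a lower level. At t0 it was at 6.30 to 11.7 CPM in batch 1, 8.06 to 9.30 CPM in batch 2 and 15.1 to 25.9 CPM in batch 3, so that batch 3 did not overlap the others. At t2 it was at 11.6 to 25.2 CPM over all libraries. It was higher at t2 in each of the 11 cultures of batches 1 and 2 and in 1 of 6 of batch 3. NDE2 went the other way at t0, at 25.1 to 32.6, 26.9 to 64.4 and 8.39 to 24.2 CPM in batches 1, 2 and 3. The counts behind these values were low, from 40 for NDE2, 44 for COX5B and 61 for CYC7, whereas every other member had at least 385 counts in each library.

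**Figure D3:**
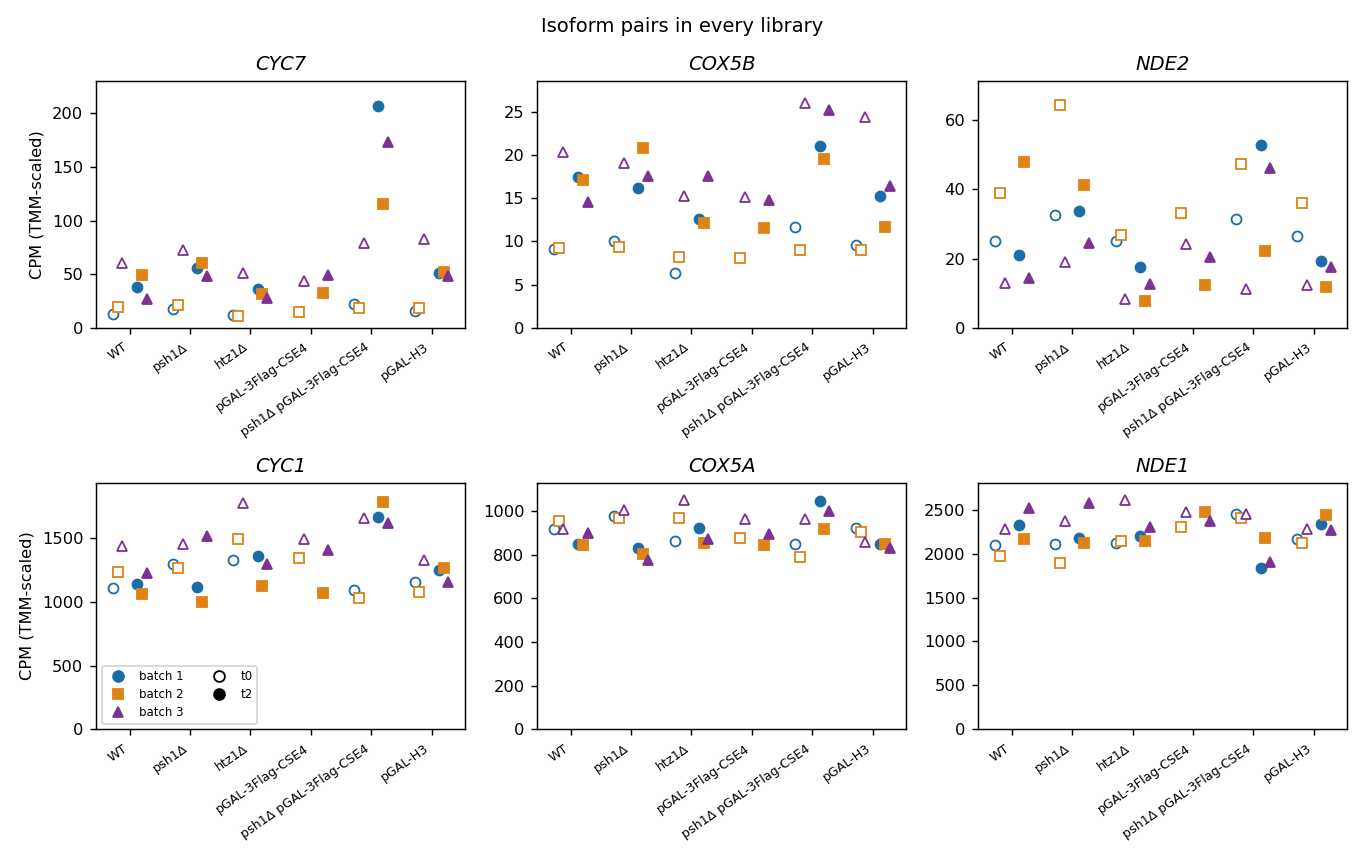
TMM-scaled CPM (vertical axis, linear from 0) of CYC7, COX5B, NDE2, CYC1, COX5A and NDE1 in each library, by genotype, with open points for t0 and filled points for t2 and batch as marker shape. CYC7 in the t0 libraries of batch 3 lies at 43.71 to 82.9 CPM, above those of batches 1 and 2, and in psh1Δ pGAL-3Flag-CSE4 at t2 it lies at 115.3 to 207.4 CPM.

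Batch 3 was compared with batches 1 and 2 across genotypes to give these differences a test. At t0 edgeR called 3 members, where it called 5.36% of all genes. CYC7 was higher in batch 3 by 1.99 (SE 0.09, adjusted p = 3.92e-10) and COX5B by 1.15 (SE 0.09, adjusted p = 1.09e-07), and NDE2 was lower (-1.26, SE 0.15, adjusted p = 9.21e-06). Without the fold minimum 12 members were higher and 4 lower in batch 3, against 18.1% and 19.7% of all genes. Of the 9 complex III genes 7 were among the 12, by 0.13 to 0.26, and ATP3, ATP4 and ATP7 were among those lower. Of the genes around the chain, COX26, a small protein of complex IV, was called higher (1.71), and JEN1 (-1.63), DLD1 (-0.71), PET117 (-0.62) and YJL045W (-0.61) were called lower. JEN1 was at 4046 to 4887 CPM at t0 in batches 1 and 2 and at 1100 to 2817 CPM in batch 3.

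At t2 edgeR called 0 members between the batches (background 0.209%), and DESeq2 called 0. At an unadjusted p under 0.05 there were 4 (the share of all genes at this p is not given). The smallest p values were those of ATP20 (-0.29, adjusted p = 0.0664 in edgeR) and QCR10 (-0.18). The change from t0 to t2 therefore differed between the batches, and the same 3 members were called for it (background 5.67%). The difference of the log2 changes, batch 3 minus batches 1 and 2, was -2.12 for CYC7 (SE 0.18), -0.99 for COX5B (SE 0.14) and 1.09 for NDE2 (SE 0.34), with adjusted p of 8.36e-09, 8.09e-06 and 0.0217 in edgeR. Complex III changed more downward in batch 3, with 6 of 9 genes past the adjusted p (background 12.1% lower) and a median of -0.30. The labels give the batch as a number only, and what differed between the batches was not tested.

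In htz1Δ, 2 of the 12 ATP synthase genes at t0 and 3 at t2 were higher than in WT at an adjusted p under 0.05, by less than 1.5-fold. ATP15 was at 328.8, 350.5 and 308.1 CPM in htz1Δ at t0, against 259.4, 228.5 and 237.4 CPM in WT, and at t2 at 267.3, 212.5 and 245.3 against 185.9, 176.5 and 172.3 CPM. At both times every htz1Δ library of ATP15 lay above every WT library, with TMM as with library totals. ATP18, a small F0 subunit, was at 218.6, 220.8 and 222.0 CPM at t0 against 164.0, 153.2 and 170.0 CPM in WT. All 12 ATP synthase genes had a higher fitted level in htz1Δ at t0 (median 0.23) and at t2 (median 0.25) with TMM, where the medians of all genes were 0.01 and -0.01. With library totals in place of TMM the numbers were 11 of 12 at t0 (median 0.14, all genes -0.08) and 9 of 12 at t2 (median 0.11, all genes -0.15). Complexes II, III and IV were also higher at t0 with TMM, in 4 of 4, 9 of 9 and 8 of 9 genes (medians 0.18, 0.14 and 0.14). At t2 these numbers were 4, 8 and 8. With library totals they were 4, 7 and 7 at t0 and 2, 1 and 4 at t2.

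By the test, edgeR called 0 members in htz1Δ at t0 (background 2.98%) and 0 at t2 (background 6.54%). An unadjusted p under 0.05 was found for 8 members at t0 and 16 at t2, against 1414 and 1902 of all 6209 genes. DESeq2 called 0 at both times. Without the fold minimum, ATP18 and ATP15 were higher at t0 (both 0.45, adjusted p = 0.0297 and 0.0467 in edgeR, background 1.64% higher), and 12 members were higher with the batch as a block. At t2 ATP15 (0.44, adjusted p = 0.0137), ATP7 (0.35), ATP14 (0.32), COX12 (0.30), SDH3 (0.29) and COX9 (0.28) were higher, against 7.36% of all genes. Without batch 1 or batch 2 none passed at t0, and at t2 none passed without batch 1 or batch 3 and 2 did without batch 2. For the block and the fits without a batch, the shares of all genes were not counted. Over the 39, the median was 0.17 at t0 and 0.12 at t2. The htz1Δ libraries had TMM factors of 0.921 to 0.935 at t2, and with library totals the median at t2 turned to -0.02 and none of these 6 passed, while NDE2 was called lower (-1.26, adjusted p = 0.0478). With TMM, NDE2 was at -1.13 (adjusted p = 0.0856). Without overlap, 16 members at t0 and 18 at t2 lay above WT with TMM (13.9% and 16.6% of all genes), and 11 and 6 with library totals (7.91% and 7.96%).

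Among the genes around the chain, SDH6, an assembly factor of complex II, was called higher in htz1Δ at t0 (0.68). At t2 COX26 (-1.71), COX23 (-0.89), COQ3, a methyltransferase of coenzyme Q synthesis (-0.92), and ATP12, an F1 assembly factor (-0.78), were called lower. DESeq2 did not call COX26. The change after galactose of htz1Δ was compared with that of WT, and 0 members were called by edgeR (background 0%) or DESeq2, with 0 at an unadjusted p under 0.05. The smallest p values were those of NDE1 (-0.20) and NDE2 (-0.80), and the median was -0.02.

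Between psh1Δ and WT no member differed by the test. At t0 and at t2 edgeR and DESeq2 called 0 members (background 0.0161% at each time). At t0 0 members had an unadjusted p under 0.05 (171 of all 6209 genes), and ATP20 (-0.27) and QCR7 (0.16) had the smallest. At t2 it was 1 member (105 of all 6209 genes), CYC7 (0.54, adjusted p = 0.9993 in edgeR). CYC7 was at 55.73, 60.88 and 48.07 CPM in psh1Δ against 38.17, 49.44 and 26.71 CPM in WT. It was higher within each batch, but the groups overlapped. COX5B was next, at 0.16.

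In the strain that lacks Psh1 and overproduces Cse4, the 39-gene median was not lower after galactose in 2 of 3 cultures with TMM. The median log2 change of the 39 genes was 0.10, 0.04 and -0.15 in batches 1, 2 and 3, against -0.15, -0.32 and -0.28 in WT. The ATP synthase median of this strain was below 0 in each batch, at -0.08, -0.19 and -0.24, with 9, 12 and 10 of 12 genes lower. In batch 3 31 of the 39 genes, with all 9 of complex III, were lower at t2, and the median of the 39 lay within the range of WT. By complex, the medians of complex II (-0.26), complex IV (-0.07) and ATP synthase (-0.24) in this culture lay above the range of WT. The summed level in this strain was 37749 to 43007 CPM at t0 and 37682 to 40797 CPM at t2, which overlap, whereas in WT the times were apart. At t2 24 of the 39 genes lay above WT in every library and 0 below, against 17.9% of all genes above. This pattern depends on the scaling. The TMM factors of these t2 libraries were 0.864 to 0.889, the lowest of the series, and the share of the 39 genes in all counts was 3.31 to 3.53%, against 3.29 to 3.57% in WT. With library totals, 5 members lay above WT (6.52% of all genes) and 7 below (40.2%).

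**Figure D4:**
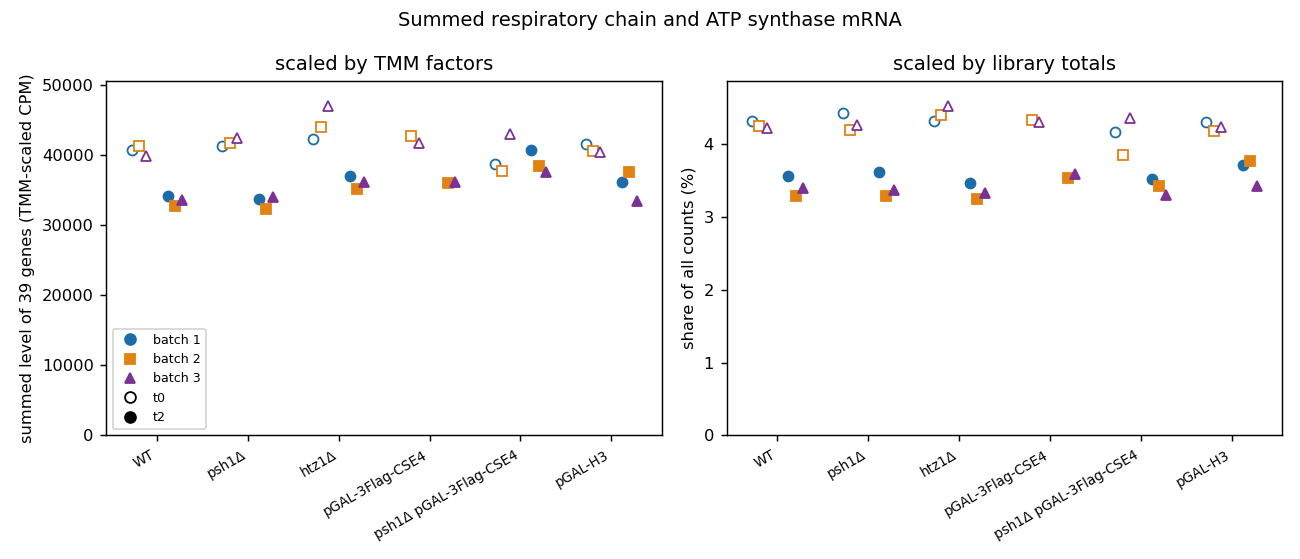
Summed level of the 39 genes in each library as TMM-scaled CPM and as percent of all counts (vertical axes), by genotype, with open points for t0 and filled points for t2. In psh1Δ pGAL-3Flag-CSE4 the t2 libraries lie at 37682 to 40797 on the TMM scale but at 3.31 to 3.53% of counts, within the range of WT at t2.

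SDH2, at 1545, 1721 and 1619 CPM in WT at t0, was at 1237, 1306 and 1173 CPM at t2. In psh1Δ pGAL-3Flag-CSE4 it was at 1352, 1144 and 1630 CPM at t0 and at 2207, 1709 and 1805 CPM at t2. It was thus lower at t2 in all 3 WT cultures and higher in all 3 cultures of this strain with TMM, and in 2 of 3 with library totals (1656 and then 1585 CPM in batch 3). NDI1 was at 1372, 1375 and 1484 CPM in WT at t0 and at 959.9, 975.8 and 981.9 CPM at t2, and in psh1Δ pGAL-3Flag-CSE4 at 1292, 1188 and 1573 CPM and then at 1531, 1367 and 1338 CPM. It was thus higher at t2 in 2 of 3 cultures of this strain with TMM and in 1 with library totals. CYC7 reached 207.4, 115.3 and 173.8 CPM at t2 in this strain, where the t2 libraries of all the other strains lay at 26.7 to 60.9 CPM. With library totals these values were 102.6 to 179.2 and 25.5 to 62.1 CPM, so that the strain stood apart under both scalings. Per library, CYC1 was then 8.35 to 16.1 times CYC7 per kb, against 22.3 to 47.8 times in WT at t2.

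The difference of the log2 changes from that of WT was 0.84 for SDH2 (SE 0.21, adjusted p = 0.0710 in edgeR), 0.58 for NDI1 (SE 0.17, adjusted p = 0.121) and 1.72 for CYC7 (SE 0.84, adjusted p = 0.341). No member was called by edgeR (background 0.338%). An unadjusted p under 0.05 was found for 11 members, and for 1002 of all 6209 genes. DESeq2 called 2, SDH2 (0.86, adjusted p = 0.00257) and NDI1 (0.59, adjusted p = 0.0112). The same 2 were called in the edgeR fit over all 34 libraries. Over the settings tried, the difference for SDH2 was 0.66 to 0.99, with an adjusted p of 0.00257 to 0.680. In batches 1, 2 and 3 it was 1.03, 0.98 and 0.61 for SDH2, 0.76, 0.70 and 0.36 for NDI1, and 1.61, 1.30 and 2.30 for CYC7. The other isoforms were at 0.54 for CYC1, 0.27 for COX5A, 0.11 for COX5B, -0.47 for NDE1 and 0.31 for NDE2, and did not pass in edgeR. NDE1 was lower in all 3 batches (-0.56, -0.28 and -0.50) and passed the adjusted p in DESeq2 (-0.45, adjusted p = 0.0356).

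Over the 39 genes the median difference was 0.24, with 34 positive values, against -0.01 for all genes. With library totals the medians were 0.05 and -0.19, 27 values were positive, and 1 member was called, NDE1 (-0.64, adjusted p = 0.0467). Complex II kept positive values for all 4 genes under both scalings (medians 0.39 and 0.21), whereas the median of the ATP synthase genes turned from 0.14 to -0.04. Relative to the median of all genes, 4 of 4 complex II, 8 of 9 complex III, 8 of 9 complex IV and 10 of 12 ATP synthase genes were higher under either scaling.

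Against psh1Δ, which shares the deletion but has neither the extra Cse4 nor the LEU2 marker, edgeR also called 0 members (background 0.451%). At an unadjusted p under 0.05 there were 11 (the share of all genes at this p is not given). DESeq2 called 1, SDH2. SDH2 was at 0.89 (SE 0.23, adjusted p = 0.0895) and COX9, a complex IV subunit, at 0.42. In batches 1, 2 and 3 SDH2 was at 1.02, 0.95 and 0.78. The median was 0.31, and 0.08 with library totals (all genes -0.23). Without the psh1Δ t2 library of batch 3, which deviated most, the fit still called 0.

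**Figure D5:**
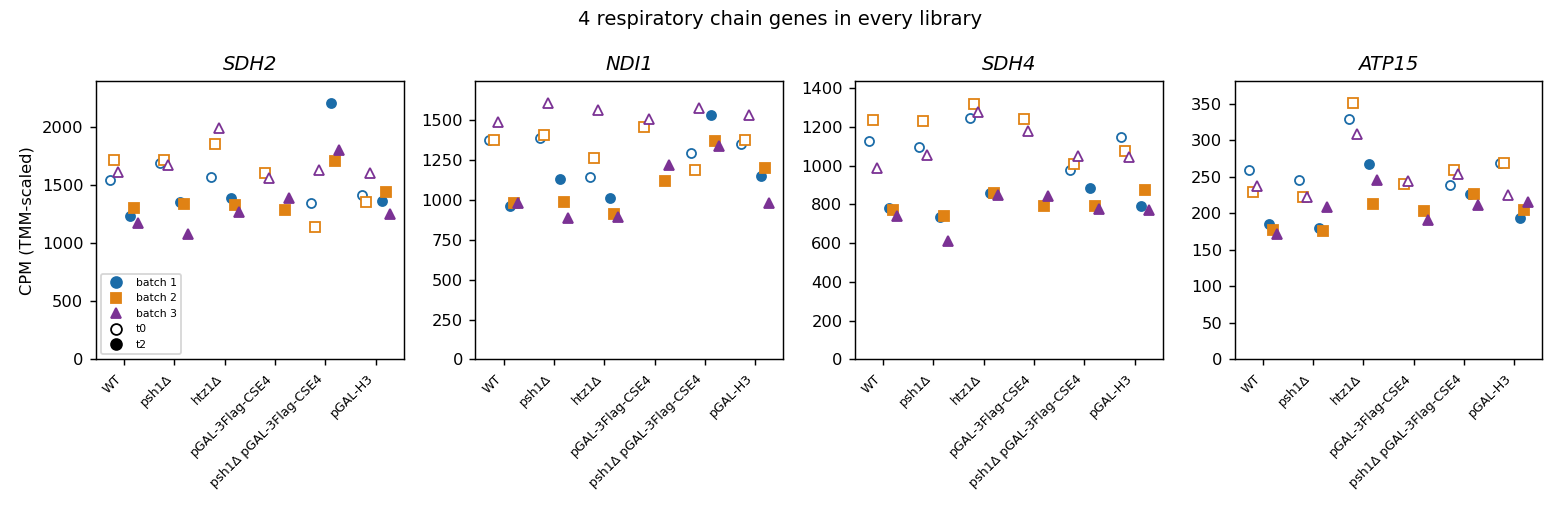
TMM-scaled CPM (vertical axis, linear from 0) of SDH2, NDI1, SDH4 and ATP15 in each library, by genotype, with open points for t0 and filled points for t2 and batch as marker shape. SDH2 is lower at t2 in each WT culture and higher at t2 in each psh1Δ pGAL-3Flag-CSE4 culture on this scale (in 2 of 3 with library totals), and ATP15 lies higher in htz1Δ than in WT at both times.

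The single overproducers gave no member past the test. Extra Cse4 in cells with Psh1 was compared with WT for its change after galactose. EdgeR called 0 members (background 0.0161%), with 0 at an unadjusted p under 0.05, and DESeq2 called 0. COX8 (0.27) and NDI1 (0.20) had the smallest p, and SDH2 was at 0.08 and 0.30 in its 2 batches. The median was 0.07 (all genes 0.01), with 29 of the 39 values positive. This fit keeps the WT libraries of batch 1, where pGAL-3Flag-CSE4 had no culture. Without batch 1 the median was 0.10 (all genes 0.004), with 34 values positive. Extra histone H3 gave 0 called members in edgeR (background 0.0161%, 0 at an unadjusted p under 0.05) and in DESeq2, with SDH2 (0.29) and SDH1 (0.25) first. Its median was 0.06 (all genes 0.01), with 33 of the 39 values positive. These comparisons and those of htz1Δ, psh1Δ and psh1Δ pGAL-3Flag-CSE4 share the WT libraries. With 2 or 3 cultures a genotype, a p that misses the threshold does not show that values were alike. The reads were not marked for strand, and ATP1 and ATP14 each overlap another gene (YBL100C and YLR294C), so that their reads cannot be told apart from those of the partner.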

How the data were processed

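RNA was sequenced as 50-base single reads from a kit that does not mark strand. After a quality filter the authors used TopHat 2.1.0 (genome SacCer3), HTSeq 0.6.1 to count reads per gene, a filter on low counts, and edgeR 3.12.0. The deposited tables hold raw counts per gene, which were used. They also hold normalized CPM and significance columns (treated as score values), log2 fold changes and p-values of the authors' own comparisons, which were not used. The 8 tables held 64 count columns, of which 30 repeat a library without any difference. The labels' processing notes also list hg19, with no use stated.

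The counts of 6209 genes were tested with edgeR 4.0.16 (TMM, quasi-likelihood F test, 2-sided, Benjamini-Hochberg over all genes) in fits of the groups compared. The SE of a log2 change is its size divided by the square root of F. The averaged change and the batch comparisons were fitted on all the genotypes. Called means an adjusted p under 0.05 and at least 1.5-fold. Single-culture changes used TMM CPM plus 0.5. Apart from the batch comparisons, the main fits had no term for batch or culture. They treated the t0 and t2 libraries of a culture as independent. DESeq2 1.42.0 is an alternative, and so are its size factors, at least 10 counts in 3 libraries and no fold minimum. The others are a batch block, the culture as a block (for differences of changes only), 1 fit over 34 libraries and leaving out each batch. Library totals in place of TMM, leaving out the psh1Δ t2 library of batch 3, and the counts by adjusted p alone were added after the data were seen. The edgeR steps were tested on simulated data.

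The labels number batches, so the block pairs libraries: over 177 same-batch pairs of groups, the correlation of deviations from the group means was -0.396 to 0.797 (median 0.148), and 96 exceeded 0.1. Cultures of 1 strain per batch were counted as replicates. Gene coordinates were the same in the table and the RefSeq annotation for 99.82% of 5714 matched genes. Every 50-base window of the members was unique in the genome.

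The members and the other lists were chosen with earlier results of these data known. Named were called members (at most 8), otherwise the 2 with the smallest p, the isoform pairs throughout, and called genes of the other lists.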

Additional observations from a re-analysis of the deposited data

Results flagged for a closer look

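The change after galactose differed between batch 3 and batches 1 and 2 for 3 members, by the edgeR test of that difference over all genotypes. The difference of the log2 changes was -2.12 for CYC7, -0.99 for COX5B and 1.09 for NDE2, with adjusted p of 8.36e-09, 8.09e-06 and 0.0217. For CYC7 the change was positive in 11 of 11 cultures of batches 1 and 2 and in 2 of 6 of batch 3, for COX5B in 11 of 11 and 1 of 6. For NDE2 it was positive in 3 of 11 and 5 of 6 cultures.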

How the results depend on the processing

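Of 268 counts of members under alternatives, 227 stayed within 1.5 times of the value reported. Counts of 0 that stayed 0 are among the 227, and edgeR called 0 members in most comparisons. Without a fold minimum the members called were 5 in WT after galactose, 32 averaged, 2 and 6 in htz1Δ at t0 and t2, 16 for batch 3 at t0 and 11 for its change. Library totals gave 1 called in WT, in htz1Δ at t2 and in psh1Δ pGAL-3Flag-CSE4 against WT, and 0 (htz1Δ t0), 1 (htz1Δ t2) and 1 (psh1Δ pGAL-3Flag-CSE4 against WT) past the adjusted p. The averaged change of CYC7 was then 0.63 and was not called. DESeq2 and the fit over 34 libraries called 2 and 2 members for psh1Δ pGAL-3Flag-CSE4 against WT, and 1 and 2 against psh1Δ. Past the adjusted p they gave 6 and 4 against WT, 4 and 8 against psh1Δ, and 11 and 15 for WT after galactose. The fit over 34 libraries gave 6 and 12 in htz1Δ at t0 and t2, and DESeq2 gave 1 for batch 3 at t2. With the batch as a block, 12 passed in WT after galactose and 12 in htz1Δ at t0, and no other count moved by over 1.5 times. The shares of all genes under these alternatives are not given. With the culture as a block, the median difference of psh1Δ pGAL-3Flag-CSE4 from WT was 0.24, with 34 positive values. For the change of batch 3, CYC7 (-2.14), COX5B (-0.99) and NDE2 (1.15) were called with that block.

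With 1 batch left out, the called members were 0 to 3 in WT and 0 to 3 averaged, and those past the adjusted p were 0 to 16 in WT, 20 to 31 averaged, 0 to 2 in htz1Δ at t0, 0 to 2 at t2 and 0 to 1 for batch 3 at t2. The averaged change of CYC7 was 0.36 to 1.70. Batch 3 cannot be left out of its own comparisons. Leaving batch 2 or batch 3 out of pGAL-3Flag-CSE4 leaves 1 culture, assumed to vary like the other groups. Low counts limit NDE2 (40 in its lowest library) and COX5B (44 to 154 over all libraries).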
